A study of Mus musculus with 6 samples.

Results

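The transcripts of the mitochondrial ribosomal proteins were examined in cultured brown adipocytes of WT and Ucp1-KO mice. They were taken as all RefSeq genes of the deposited table whose symbol begins with Mrpl or Mrps followed by a number, 76 genes of 22466, of which 47 are named for the large and 29 for the small ribosomal subunit. A gene with more than 1 RefSeq transcript was represented by the one whose mean over the 6 cultures was highest. Precursor cells were isolated from the interscapular brown fat (BAT) of male mice of strain 129SvEvS1, aged 5 to 6 weeks, and differentiated in the dish with an adipogenic mixture that both genotypes received. The 3 WT cultures (replicates 10, 11 and 12) carry an intact Ucp1 gene. The 3 Ucp1-KO cultures (replicates 13, 14 and 15) come from mice with a deletion in every cell of the body, not in fat alone, and per the study they still make a remnant Ucp1 transcript without exons 2 and 3. Nothing in the labels says whether the cultures of a genotype came from separate animals, so that p-values measure the spread between these cultures only.

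Mitochondria hold their own ribosome, which translates the few proteins encoded by the mitochondrial genome, all of them core subunits of the respiratory chain and of ATP synthase. Its ribosomal RNA is made inside the organelle, whereas its proteins are encoded in the nucleus, made in the cytosol and imported. Brown adipocytes are packed with mitochondria, whose respiration UCP1 uncouples from ATP synthesis.

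Abundance is given in RPKM, the reads on a transcript scaled to its length and to the depth of the library, so that levels of different genes can be set side by side. The totals behind the 6 cultures lay between 14989604 and 17727653 reads. Ucp1 was at 1775, 981.2 and 1157 RPKM in the WT cultures, and the remaining signal was 306.6, 408.7 and 397.9 RPKM in the Ucp1-KO cultures. Adipocyte markers summed to 29200 to 30810 RPKM in WT and 29750 to 32970 RPKM in Ucp1-KO cultures, while stromal markers summed to 537.6 to 1450 and 534.6 to 825.8 RPKM, macrophage markers to 55.4 to 169 and 41.4 to 802.8 RPKM, mural markers to 36.9 to 46.9 and 21.1 to 36.0 RPKM, endothelial markers to 2.30 to 28.0 and 5.22 to 12.8 RPKM, and skeletal muscle markers to 2.57 to 6.25 and 2.51 to 12.5 RPKM. All 6 stromal, 3 mural and 3 endothelial genes tested had lower means in Ucp1-KO cultures. All 5 adipocyte genes (median log2 fold change 0.06), 5 macrophage genes and 2 tested muscle genes had higher ones. The high macrophage sum belonged to replicate 14 alone. The highest stromal and endothelial sums, 1450 and 28.0 RPKM, were those of WT replicate 11, while WT replicate 10 had 537.6 and 2.30 RPKM. The part of these other cells in the values below was not tested.

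Upstream sequence was available from RefSeq (GRCm38.p6) for 67 of the 76 genes, as 250 bases before and 50 bases after the start of transcription. The recognition sequence of GABP (also NRF2), CCGGAAG searched on both strands, was present in 24 of the 67 promoters, 35.8%, against 20.3% of the promoters of genes that passed the abundance minimum and 9.93% of all promoters of this length. The NRF1 sequence, GCGCA and GCGC with any base between them, stood in 12 of the 67 (17.9%, against 11.8% and 5.19%) and the YY1 sequence AAGATGGCG in 8 (11.9%, against 3.61% and 1.64%). GABP, NRF1 and YY1 are transcription factors known for nuclear genes of mitochondrial proteins. In 66 promoters of respiratory complexes and ATP synthase the shares were 24.2% for GABP, 25.8% for NRF1 and 10.6% for YY1, so these letters are not particular to the ribosomal proteins. A CCAAT box was as frequent as elsewhere (40.3%, against 43.1% and 41.1%), and the TATA box TATAAA was found in 7.46%, against 8.82% and 15.7%. Of 28 GABP matches, 25 lay within 100 bases of the start. GABP matches were present in 13 of 41 large-subunit promoters (31.7%) and 11 of 26 small-subunit promoters (42.3%), NRF1 matches in 9 (22.0%) and 3 (11.5%). The letters alone do not show that a factor binds there, and a promoter without them may be bound elsewhere.

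The promoters below, 150 bases before to 30 bases after the start on GRCm38.p6, were chosen because they carry these matches, printed in capitals. Mrpl12 and Mrpl30, both among the 5 most abundant members, have an NRF1 match and Mrpl45 has 3. Mrpl43 has GABP matches at 2 positions. Mrps18a and Mrps27 carry a GABP match upstream of the start and a YY1 match downstream of it.

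Mrpl12, chr11:120484487-120484666, plus strand: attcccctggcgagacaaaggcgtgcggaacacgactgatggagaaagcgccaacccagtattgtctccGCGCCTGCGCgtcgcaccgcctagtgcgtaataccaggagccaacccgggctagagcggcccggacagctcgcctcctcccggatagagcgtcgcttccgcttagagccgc
Mrpl30, chr1:37890327-37890506, plus strand: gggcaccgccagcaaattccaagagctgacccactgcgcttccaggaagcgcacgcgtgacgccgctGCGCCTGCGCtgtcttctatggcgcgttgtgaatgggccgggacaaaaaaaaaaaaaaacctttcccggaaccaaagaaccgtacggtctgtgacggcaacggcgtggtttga
Mrpl45, chr11:97315566-97315745, plus strand: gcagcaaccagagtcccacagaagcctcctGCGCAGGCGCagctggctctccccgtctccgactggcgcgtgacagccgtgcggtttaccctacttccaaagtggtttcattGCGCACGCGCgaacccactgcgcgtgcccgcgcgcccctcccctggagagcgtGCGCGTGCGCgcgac
Mrpl43, chr19:45006413-45006592, minus strand: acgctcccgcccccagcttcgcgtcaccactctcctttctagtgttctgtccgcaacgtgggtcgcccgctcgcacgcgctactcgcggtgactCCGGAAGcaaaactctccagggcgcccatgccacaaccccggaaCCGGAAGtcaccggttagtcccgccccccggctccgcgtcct
Mrps18a, chr17:46110854-46111033, plus strand: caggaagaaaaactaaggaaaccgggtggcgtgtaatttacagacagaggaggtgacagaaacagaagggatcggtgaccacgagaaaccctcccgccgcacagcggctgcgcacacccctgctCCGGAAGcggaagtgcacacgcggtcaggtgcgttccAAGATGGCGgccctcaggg
Mrps27, chr13:99344636-99344815, plus strand: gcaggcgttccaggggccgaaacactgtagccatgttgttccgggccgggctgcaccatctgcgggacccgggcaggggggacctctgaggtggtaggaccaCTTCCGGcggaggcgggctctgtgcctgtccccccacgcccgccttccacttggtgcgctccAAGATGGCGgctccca

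A further shared trait was the arrangement of the genes. A second protein-coding gene started on the opposite strand within 1000 bases upstream (GENCODE M21, GRCm38) in 17 of the 76 genes, 22.4%, against 10.5% of the genes that passed the abundance minimum and 6.78% of all protein-coding genes. The median distance between the starts was 83 bases, from 26 bases between Mrpl54 and Apba3 to 935 bases between Mrpl41 and Pnpla7. The partner had a mean under 10 RPKM in 14 of the 17 pairs (82.4%), against 58.9% of all genes that passed the minimum. One of the 14, Fau beside Mrpl49, is uncertain, since a transcript of Fau from another annotation had 126.3 to 163.3 RPKM. Mrpl30, for example, reached 173.4 RPKM, while Mitd1, which starts 66 bases away, had 9.15 RPKM. Mrps12 and Sars2, the seryl-tRNA synthetase of mitochondria, start 172 bases apart and had 36.6 and 5.75 RPKM. In the other 3 pairs, Mrpl32 and the proteasome subunit gene Psma2 had 46.8 and 117.7 RPKM, Mrps27 and Ptcd2 36.9 and 37.7 RPKM, and Mrpl54 and Apba3 86.2 and 26.4 RPKM. Genes whose starts overlap were not counted there. With overlapping starts on opposite strands, up to 1000 bases either way, counted as well, the numbers were 32 of 76 (42.1%), against 16.7% and 10.9%. The only members so joined with each other were Mrpl46 and Mrps11 on chromosome 7, whose starts overlap by 412 bases in GENCODE and lie 42 bases apart in RefSeq. The genes lay on 17 chromosomes, with 10 on chromosome 11 and 8 on chromosome 17.

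Nearly all of these transcripts were abundant. Over both subunits the median was 41.6 RPKM, against 7.39 RPKM for all transcripts tested, and 64 of the 76 genes reached 20 RPKM. Nuclear genes for subunits of ATP synthase and the respiratory chain, whose products are joined by those of the mitochondrial ribosome, were higher still, with a median of 277.6 RPKM over 85 genes. Among the tested members the highest mean was 33.3 times the lowest. The 5 most abundant genes supplied 21.8% of the summed RPKM.

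Large-subunit transcripts were led by Mrpl20, Mrpl12, Mrpl30, Mrpl33 and Mrpl42. Mrpl20 (gene ID 66448, chr4:155802878-155808831), which has a bacterial counterpart, was measured at 218.3, 163.1 and 160.3 RPKM in WT and 235.7, 202.7 and 209.2 RPKM in Ucp1-KO cultures, and its mean of 198.2 RPKM ranked 295 among 28890 RefSeq transcripts. Mrpl12, a protein of the stalk that recruits translation factors, had 186.2, 179.6 and 162.6 RPKM in WT and 194.7, 187.1 and 167.4 RPKM in Ucp1-KO cultures. Mrpl30, the homologue of a bacterial large-subunit protein, had 155.5, 168.0 and 153.1 RPKM in WT and 166.9, 193.5 and 203.1 RPKM in Ucp1-KO cultures. The ranges of these 3 genes overlapped one another and that of Mrpl33 (148.5 to 173.2 RPKM). Mrpl42, which has no bacterial counterpart, followed with 119.2 to 156.0 RPKM. At the other end stood Mrpl19 (9.12 to 10.95 RPKM), Mrpl21 (8.01 to 9.68 RPKM) and Mrpl23, which is described further on.

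Small-subunit transcripts did not reach as high. Mrps6, homologous to a protein of the bacterial small subunit, had 128.2, 113.6 and 103.1 RPKM in WT and 148.2, 120.6 and 100.9 RPKM in Ucp1-KO cultures. Mrps16, likewise of bacterial descent, had 102.8, 121.9 and 117.5 RPKM in WT and 98.8, 112.3 and 136.7 RPKM in Ucp1-KO cultures. These ranges overlapped, and none of the remaining small-subunit genes exceeded 85.8 RPKM in any culture. Mrps21 (62.8 to 85.8 RPKM), Mrps23 (64.5 to 72.5 RPKM) and Mrps18a (59.9 to 70.1 RPKM) came next, without separating from one another. Mrps12, a protein of the decoding centre, was held within 35.1 to 39.1 RPKM. The lowest were Mrps25 (8.54 to 10.3 RPKM), Mrps33 (4.87 to 6.54 RPKM) and Mrps36.

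**Figure D1:**
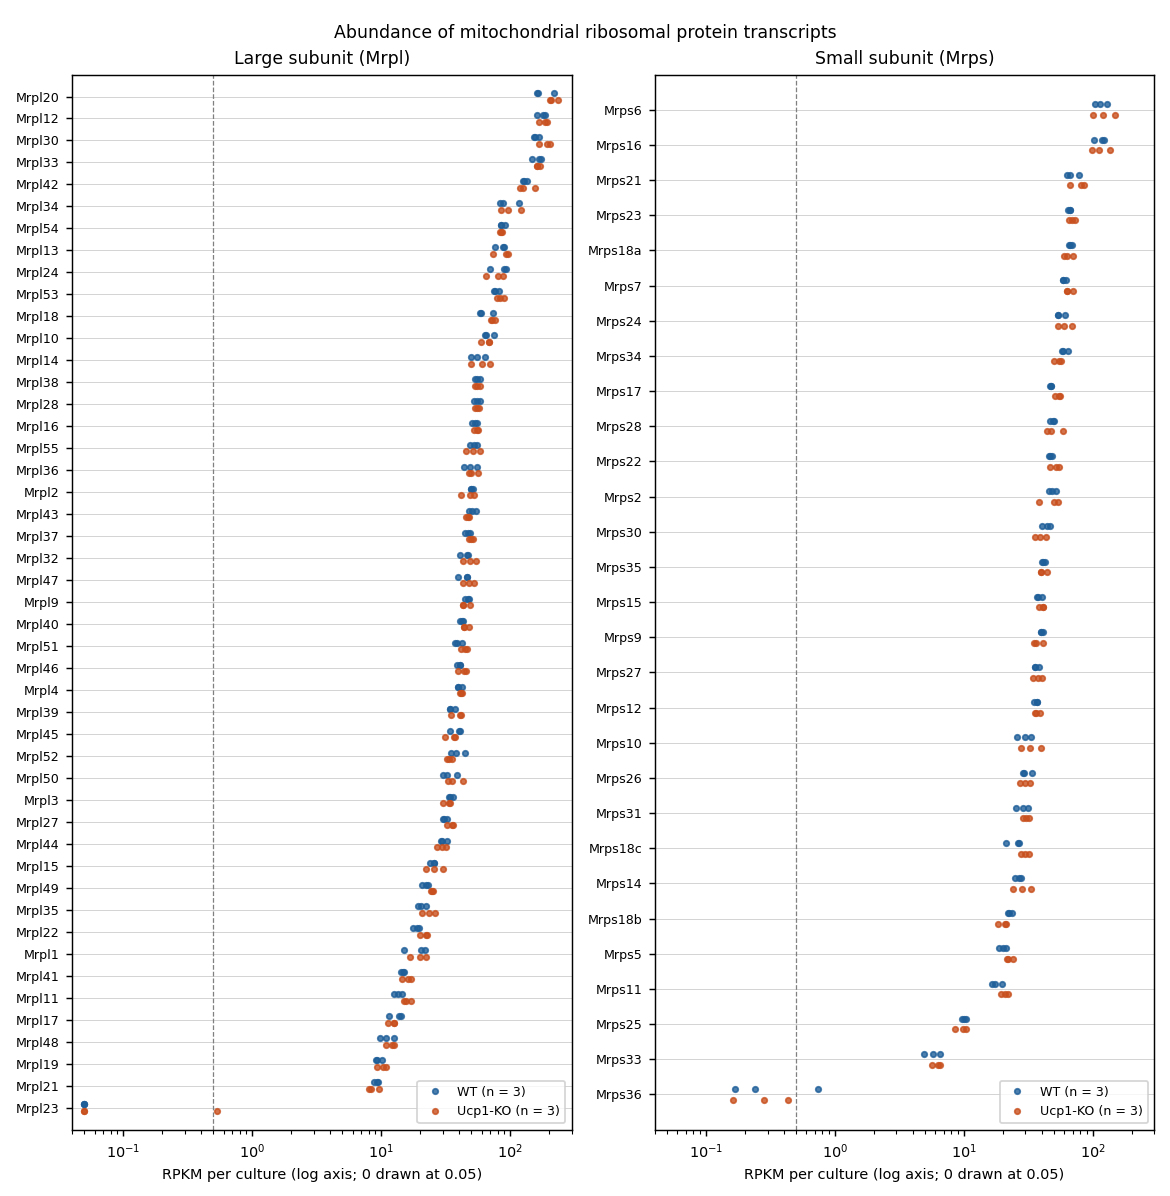
RPKM of each of the 76 mitochondrial ribosomal protein genes (rows) in each culture (points, log axis), WT in blue and Ucp1-KO in orange, with the minimum of 0.5 RPKM dashed. All genes but Mrpl23 and Mrps36 lie well above the minimum, 7 have a mean over 100 RPKM, and the points of the genotypes intermingle in most rows.

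The large and small subunits were first compared by level. The median of a gene's mean was 45.7 RPKM for the large and 39.2 RPKM for the small subunit. The genes of the subunits overlapped widely, with quartiles of 27.8 and 62.5 RPKM for the large and 27.4 and 57.0 RPKM for the small. Within single cultures, the ratio of the medians was 1.056, 1.117 and 1.072 in WT (1.08 ± 0.0316, SD, n = 3) and 1.105, 1.241 and 1.163 in Ucp1-KO cultures (1.17 ± 0.0682, SD, n = 3). It was above 1 in all 6 cultures, and the ranges of the genotypes overlapped. All 6 cultures measure the same genes, so the SD covers the spread between cultures and not that between genes. With means in place of medians the ratio was larger, 1.26 ± 0.0267 in WT and 1.28 ± 0.0110 in Ucp1-KO cultures (SD, n = 3). Of the 7 genes with a mean over 100 RPKM, 5 are of the large subunit. Symbols do not always give the place of a protein: the products of Mrps30 and Mrps18a sit in the large subunit, and that of Mrps36 is now known as a component of the oxoglutarate dehydrogenase complex. Assigned by place, the ratio was 1.132 ± 0.0698 in WT and 1.174 ± 0.0768 in Ucp1-KO cultures.

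**Figure D2:**
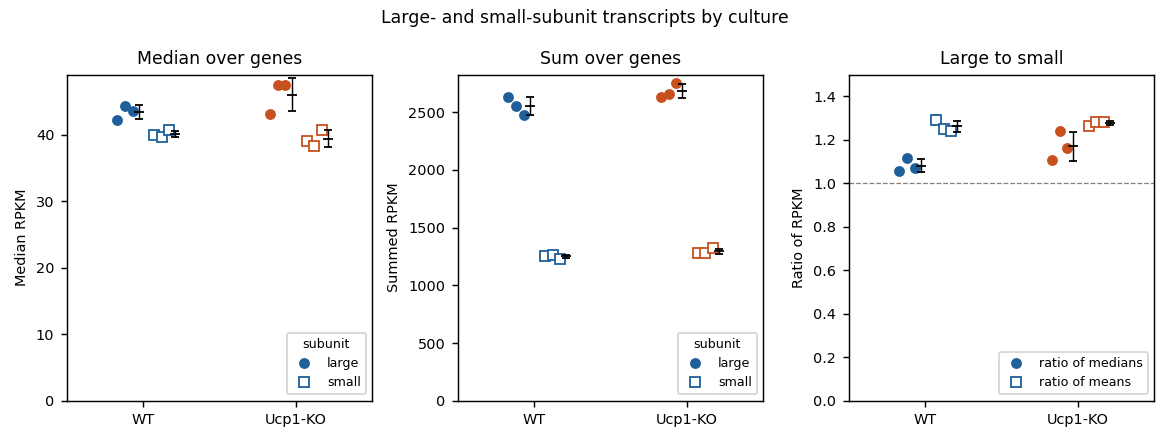
Median RPKM over the genes of a subunit, summed RPKM, and the ratio of large to small, each point 1 culture (blue WT, orange Ucp1-KO), with mean ± SD (n = 3) beside the points. The ratio of medians lies between 1.056 and 1.241 and stays above 1 (dashed) in every culture.

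By descent of the protein, the median was 47.3 RPKM over 48 genes with a counterpart and 41.0 RPKM over 27 without. For the large subunit, by place, the medians were 49.0 and 41.5 RPKM, and for the small subunit 39.2 and 36.9 RPKM.

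Long transcripts had low RPKM. Transcript lengths were computed from the RPKM values as those that give whole reads in all cultures. The 9 members whose transcript was longer than 2000 bases had a median of 15.3 RPKM, against 45.9 RPKM for the other 67, and the Spearman correlation of length with level was -0.54 over the 74 tested genes, -0.65 in the large and -0.31 in the small subunit. Mrpl17 (6712 bases), Mrps25 (6076 bases) and Mrpl19 (5016 bases) were the longest, with means of 12.7, 9.79 and 9.87 RPKM. Read numbers do not follow the same order. Mrpl17 had 1227 to 1632 reads per culture, near the 1129 to 1378 reads of Mrpl33, whose transcript of 466 bases reached 163.9 RPKM. Length enters RPKM as its divisor, and its part in the order of levels was not tested otherwise.

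**Figure D3:**
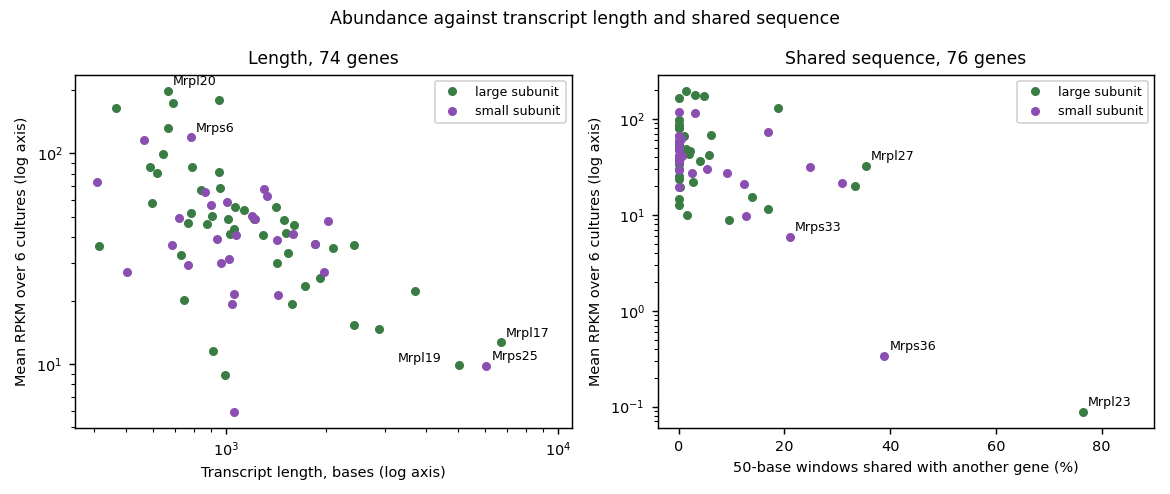
Mean RPKM over the 6 cultures (log axis) against transcript length (log axis, 74 tested genes) and against the share of 50-base windows that also occur in another gene (76 genes), green for the large and purple for the small subunit. Levels decline along both axes, and Mrpl23 and Mrps36 combine the highest shares with the lowest levels.

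Only reads that map to 1 place were assigned, so sequence shared with another gene bears on what can be counted. On the GENCODE M21 transcript matched to each RefSeq gene, windows of 50 bases, the length of a read, were looked up in all other annotated transcripts. For 45 of the 76 genes this transcript was within 10% of the length of the deposited one. No window was shared in 41 genes, and more than 5% were shared in 18. These 18 had a median of 21.3 RPKM, against 48.1 RPKM for the other 58. Mrpl27 (35.4% shared) had 30.01 to 35.9 RPKM, Mrpl22 (33.4%) 17.5 to 22.7 RPKM and Mrps18b (30.9%) 18.5 to 23.4 RPKM. Others of the 18 were high, with Mrpl42 (18.8%) at a mean of 131.9 RPKM and Mrps21 (16.9%) at 73.4 RPKM. Whether shared sequence lowered any of these levels was not tested.

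Mrpl23 (chr7, gene ID 19935), a protein near the exit of the peptide tunnel, shared 76.4% of its windows, more than any other member. Its RefSeq transcript was listed at 0 in all WT cultures and in Ucp1-KO replicates 14 and 15, and at 0.532 RPKM in replicate 13. Of 4 protein-coding transcripts listed by Ensembl, one of 644 bases was listed at 0 in all cultures and one of 692 bases had 0, 2 and 0 reads in WT and 6, 0 and 0 reads in Ucp1-KO cultures. One of 712 bases had 3, 3 and 3 reads in WT and 3, 5 and 7 in Ucp1-KO cultures, and one of 693 bases had 7, 3 and 6 reads in WT and 1, 4 and 7 in Ucp1-KO cultures. A processed pseudogene, Mrpl23-ps1 (chr2:74591330-74591909), had 12.6, 14.8 and 15.7 RPKM in WT and 13.6, 14.1 and 13.7 RPKM in Ucp1-KO cultures, at 119 to 161 reads. The level of the functional gene is uncertain and no fold change is given. Mrps36 shared 38.9% of its windows and had 0.743, 0.169 and 0.238 RPKM in WT and 0.436, 0.163 and 0.282 RPKM in Ucp1-KO cultures, at 2 to 9 reads, which is near the floor of 3 reads. A second protein-coding transcript of Mrps36, listed by Ensembl with 672 bases, had 1.48, 2.23 and 2.35 RPKM in WT and 2.03, 2.50 and 2.38 RPKM in Ucp1-KO cultures, at 17 to 29 reads, so the level depended on the transcript. The following windows of the coding sequence, each read-sized, are identical in the pseudogenes Mrpl23-ps1 and Mrps36-ps1, so that a read from them cannot be assigned to 1 gene.

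Mrpl23, bases 361 to 410 of the transcript: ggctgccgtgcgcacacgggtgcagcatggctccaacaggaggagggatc
Mrps36, bases 239 to 288 of the transcript: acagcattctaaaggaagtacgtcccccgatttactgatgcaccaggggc

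Several RefSeq transcripts were listed for 7 of the genes. They differed most in Mrps33, whose higher transcript had a mean of 5.95 RPKM and the other 1.26 RPKM. In Mrpl15 the means of 3 transcripts were 25.6, 23.5 and 19.5 RPKM. Transcripts of 1 gene share most of their exons and hence their reads, so they do not count as separate measurements.

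Next, the genotypes were compared. None of the 74 members above the minimum of 0.5 RPKM passed the test between WT and Ucp1-KO cultures (limma on log2(RPKM + 1), Benjamini-Hochberg adjusted p of at least 0.868 for all of them). The same test called 0% of all 16865 transcripts, and limma-voom on the recovered reads also called 0. Even the deleted gene did not pass: Ucp1 lay lower in all Ucp1-KO cultures, with a log2 fold change of -1.78 ± 0.24 (SE), an unadjusted p of 0.000157 and a limma adjusted p of 0.868. A lack of calls among the members therefore does not show that they were unchanged. The study's own test, DESeq2 on read counts, did report Ucp1 as different between the genotypes. Its short list of differential genes held no Mrpl or Mrps gene. At an unadjusted p under 0.05, 0 of the 74 passed, against 5.54% of all transcripts, 2.30% with a higher and 3.24% with a lower mean in Ucp1-KO cultures. Of the 74, 32 large-subunit and 19 small-subunit genes had a higher mean in Ucp1-KO cultures and 14 and 9 a lower one. Higher means made up 68.9% of the members and 49.6% of all transcripts, and 70.0% of the 80 tested nuclear genes for the respiratory chain and for ATP synthase. The 5 adipocyte markers also had higher means, by a median of 0.06 (log2), and their part in the members' values was not tested.

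The differences were small throughout. Log2 fold changes (Ucp1-KO minus WT, on the log2(RPKM + 1) scale, which understates the change of low genes) ran from -0.21 to 0.27, and 0 of 74 exceeded 0.3 in size, against 12.9% of all transcripts. Their median was 0.06 in the large and 0.07 in the small subunit, 0.06 over both, against -0.0016 for all transcripts. Standard errors had a median of 0.10 against 0.14 for all transcripts, and in 72 of the 74 genes the highest culture was under 1.5 times the lowest. All transcripts are mostly less abundant, with a median of 7.39 RPKM. Of the 80 tested nuclear genes for the respiratory chain and ATP synthase, 5 exceeded 0.3. Their median standard error was 0.11 and their median size of change 0.089, against 0.094 for the members.

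The most positive values belonged to Mrpl20 (0.27 ± 0.14, SE), Mrps18c (0.26 ± 0.12), Mrpl30 (0.24 ± 0.11), Mrpl11 (0.22 ± 0.09) and Mrpl18 (0.21 ± 0.11). Mrpl11, at the base of the stalk, had the smallest p of all members (0.0512 unadjusted, limma adjusted p = 0.868). It was measured at 14.4, 13.5 and 12.6 RPKM in WT and 15.6, 16.9 and 15.1 RPKM in Ucp1-KO cultures, so that the groups did not overlap (exact two-sided permutation p = 0.1, the smallest that 3 against 3 cultures allow). Mrpl18, a protein of the central protuberance, had 73.1, 59.9 and 57.9 RPKM in WT and 76.6, 71.0 and 72.3 RPKM in Ucp1-KO cultures, and WT replicate 10 lay within the Ucp1-KO range. The same replicate carried the overlap in Mrpl20. Mrps17, next after Mrpl11 by p (0.0534 unadjusted, limma adjusted p = 0.868), was a tight case: it had 47.6, 46.1 and 47.0 RPKM in WT and 50.7, 54.3 and 55.3 RPKM in Ucp1-KO cultures, a log2 fold change of 0.18 ± 0.08 (SE).

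The most negative values belonged to Mrpl52 (-0.21 ± 0.11, SE), Mrps34 (-0.16 ± 0.09), Mrps18b (-0.15 ± 0.09), Mrps30 (-0.15 ± 0.11) and Mrpl45 (-0.13 ± 0.11). Of these, Mrps34 is specific to mitochondria and had 64.3, 58.9 and 57.2 RPKM in WT and 56.6, 54.6 and 50.4 RPKM in Ucp1-KO cultures, without overlap. Mrpl52, also specific to mitochondria, had 35.0, 44.4 and 38.1 RPKM in WT and 35.3, 32.1 and 33.4 RPKM in Ucp1-KO cultures, where replicate 13 exceeded the lowest WT culture. Mrpl45, which helps to anchor the ribosome to the inner membrane, ranged from 34.3 to 40.9 RPKM in WT and from 31.2 to 37.1 RPKM in Ucp1-KO cultures, and the groups overlapped.

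**Figure D4:**
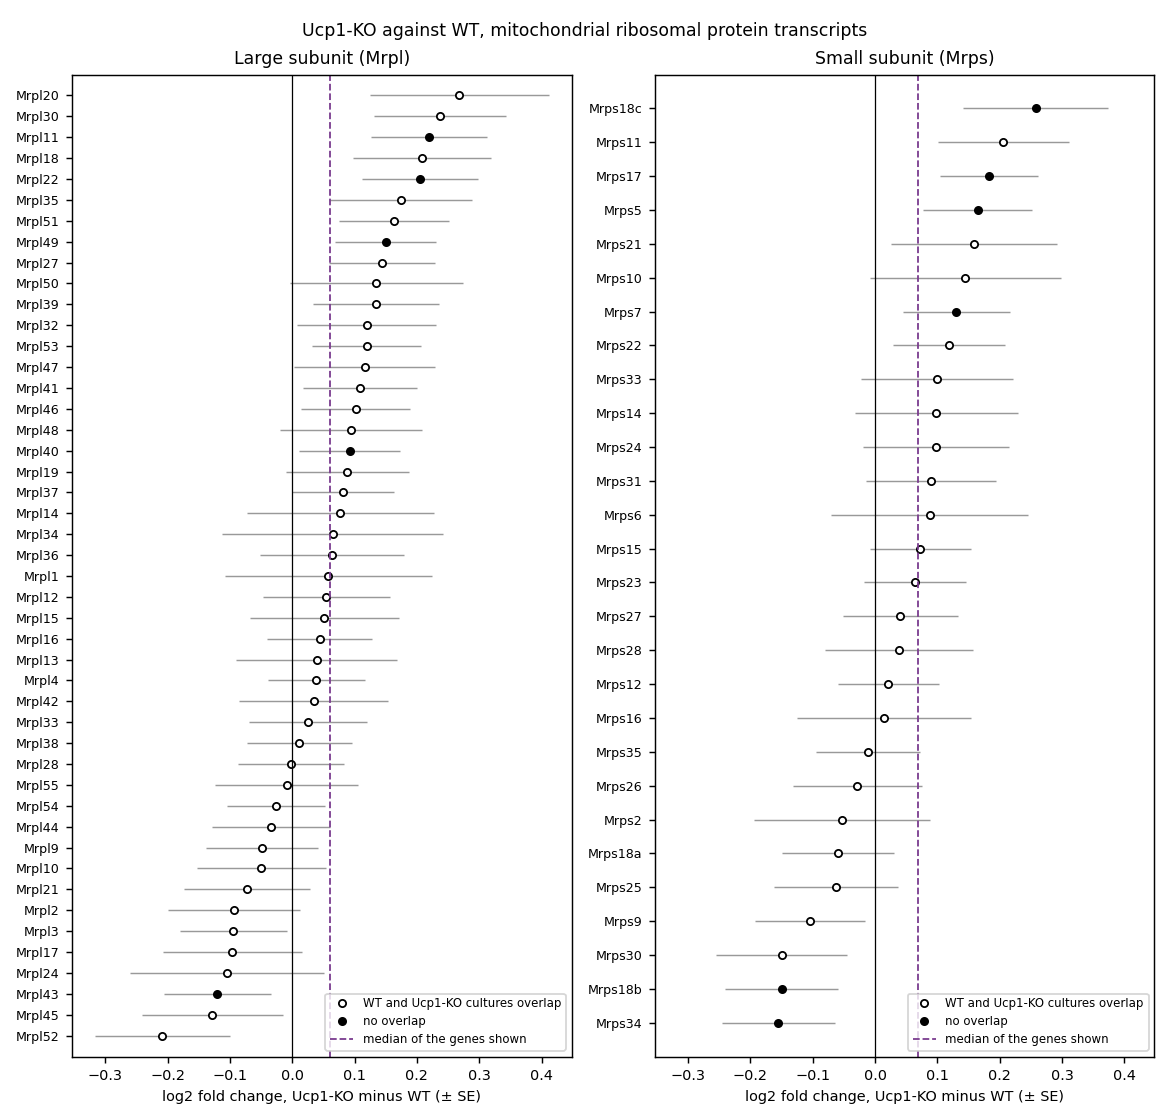
Log2 fold change (Ucp1-KO minus WT, points) with its standard error (bars) for the 46 large-subunit and 28 small-subunit genes tested, filled where the 3 cultures of one genotype lie all above or all below those of the other. All values lie between -0.21 and 0.27, and the medians (dashed) lie at 0.06 and 0.07.

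In 8 members all Ucp1-KO cultures were above all WT cultures, namely Mrpl11, Mrpl22, Mrpl40, Mrpl49, Mrps5, Mrps7, Mrps17 and Mrps18c. That is 10.8% of the members, against 6.04% of all transcripts. In 3 members, Mrpl43, Mrps18b and Mrps34, all Ucp1-KO cultures were below all WT cultures, 4.05% against 5.15%. None of these 11 passed the test, with unadjusted p between 0.0512 for Mrpl11 and 0.293 for Mrpl40 (limma).

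The 3 paralogues of Mrps18, which descend from a single bacterial small-subunit protein, had means that lay higher in Ucp1-KO cultures for Mrps18c and lower for Mrps18a and Mrps18b. Mrps18c (chr5) had 21.4, 26.4 and 27.0 RPKM in WT and 27.6, 29.9 and 32.0 RPKM in Ucp1-KO cultures. Mrps18b (chr17) had 21.9, 23.4 and 22.3 RPKM in WT and 21.0, 21.3 and 18.5 RPKM in Ucp1-KO cultures. Neither of these 2 overlapped between the genotypes. Mrps18a (chr17), the most abundant, had 66.4, 65.8 and 69.0 RPKM in WT and 63.4, 70.1 and 59.9 RPKM in Ucp1-KO cultures, with overlap and a log2 fold change of -0.06 ± 0.09 (SE). Their fold changes were not tested against one another. For Mrps30, the other symbol that names the wrong subunit, WT cultures had 40.2, 46.4 and 44.1 RPKM and Ucp1-KO cultures 35.5, 38.9 and 43.3 RPKM. Mrps12 and Mrpl12 lay near 0, with log2 fold changes of 0.02 ± 0.08 and 0.05 ± 0.10 (SE).

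Summed over all members, RPKM was 3891.5, 3818.6 and 3707.7 in WT (3806 ± 92.6, SD, n = 3) and 3917.1, 3939.7 and 4071.5 in Ucp1-KO cultures (3976 ± 83.4, SD, n = 3), with every Ucp1-KO sum above every WT sum. The sums of the large subunit overlapped (WT 2476.8 to 2633.9, Ucp1-KO 2633.1 to 2749.8) and those of the small subunit did not (WT 1230.8 to 1261.6, Ucp1-KO 1278.4 to 1321.8). This order depended on the scale. After median-of-ratios scaling, with factors between 0.95 and 1.046, the sums were 4096, 3651 and 3621 in WT and 4034, 3851 and 4078 in Ucp1-KO cultures, and they overlapped for both subunits too.

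The cultures also varied in a way that the genotypes did not explain. WT replicate 10 and Ucp1-KO replicate 13 departed in like manner from the other cultures of their genotype. Their deviations (log2) correlated with r = 0.75 across the 74 members and had the same sign in 54 (73.0%), against r = 0.53 and 70.6% over all transcripts. The pairs 11 and 14 (r = 0.46, against 0.47 over all transcripts) and 12 and 15 (r = 0.57, against 0.52) also deviated together, while the remaining 6 pairs gave r between -0.69 and 0.25. The points share their libraries, and deviations within a genotype sum to 0, so these values are descriptions. The labels link no WT culture to a Ucp1-KO culture. Both 10 and 13 were the highest cultures in 10 members (Mrpl18, Mrpl20, Mrpl33, Mrpl34, Mrpl36, Mrpl50, Mrpl54, Mrps2, Mrps6 and Mrps26), 13.5% against 10.5% of all transcripts. They were both the lowest in 17 members, among them Mrps16, Mrpl24 and Mrpl13, 23.0% against 27.2%. Across the members, the deviation correlated with the GC content of the transcript with r = 0.29, -0.13 and -0.33 in WT replicates 10, 11 and 12 and with r = 0.27, -0.13 and -0.20 in Ucp1-KO replicates 13, 14 and 15. Whether GC content or handling had a part in it was not tested.

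**Figure D5:**
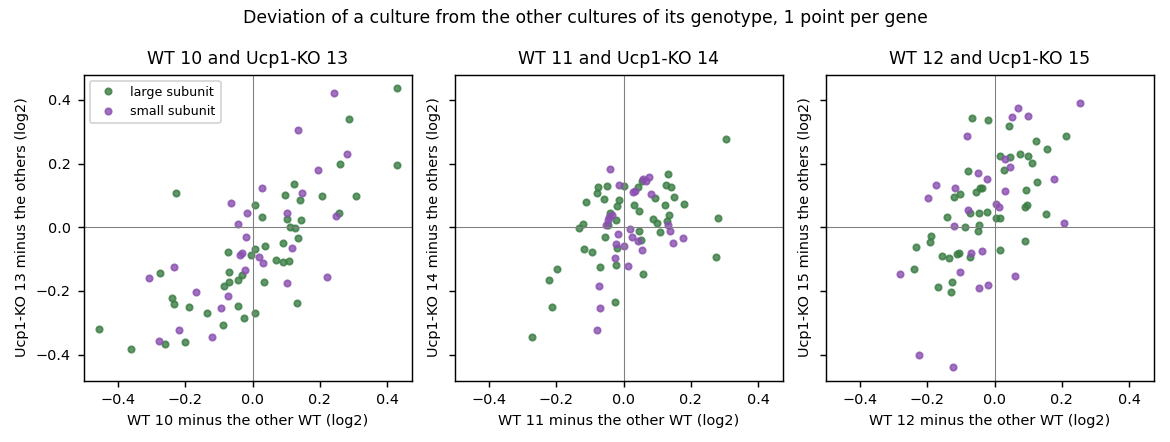
Deviation of a culture from the mean of the other cultures of its genotype (log2(RPKM + 1)), a Ucp1-KO culture against a WT culture, 1 point for each of the 74 tested members, green for the large and purple for the small subunit. Points follow the diagonal, most closely for WT replicate 10 and Ucp1-KO replicate 13 (r = 0.75).

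Without these 2 cultures, unadjusted p was under 0.05 in 8 of the 74 members (10.8%) instead of 0, against 13.6% of all transcripts, while the smallest adjusted p was 0.325 (limma). For the large subunit the median log2 fold change was then 0.10 and for the small subunit 0.06.

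None of the remaining genes of mitochondrial translation passed the test either. A list of 54 genes was followed, all of them found and tested, of which 29 had a higher and 25 a lower mean in Ucp1-KO cultures, and 0 passed at an unadjusted p under 0.05 (smallest p 0.0736, Qrsl1, a subunit of the glutamyl-tRNA amidotransferase, limma). The median log2 fold change was 0.01. All Ucp1-KO cultures lay above all WT cultures in 1 of the 54 (Ptcd3) and below them in 5 (Tsfm, Mtfmt, Rbfa, Pars2 and Tars2), against 6.04% and 5.15% of all transcripts. Among 7 ribosomal proteins with other symbols, 3 had higher and 4 lower means. Aurkaip1 was the most abundant (91.6 RPKM), followed by Chchd1 (78.2 RPKM), Ptcd3 (44.6 RPKM), Ict1 (35.5 RPKM), Gadd45gip1 (27.3 RPKM), Dap3 (14.4 RPKM) and Mrp63 (13.3 RPKM). Ict1, also called Mrpl58, is a peptidyl-tRNA hydrolase built into the large subunit. Ptcd3, a pentatricopeptide protein of the small subunit, had 42.9, 39.8 and 43.2 RPKM in WT and 44.7, 49.95 and 46.9 RPKM in Ucp1-KO cultures, without overlap. Dap3, a GTP-binding protein of the small subunit, had 13.04, 16.6 and 16.5 RPKM in WT and 11.3, 14.7 and 14.01 RPKM in Ucp1-KO cultures, with overlap.

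Of 11 translation factors, 8 had higher and 3 lower means. Gfm1, the elongation factor that moves the ribosome along the messenger RNA, was the most abundant at 65.0 RPKM. Of 16 genes for assembly and RNA modification of the ribosome, 8 had higher and 8 lower means, and Mterf4, listed as Mterfd2, led with 22.4 RPKM. Its WT and Ucp1-KO means of 26.4 ± 8.41 and 18.4 ± 4.41 RPKM (SD, n = 3) gave a log2 fold change of -0.47 ± 0.26 (SE, unadjusted p = 0.115, limma). Of 20 genes for the charging of mitochondrial tRNA, 10 had higher and 10 lower means, and Iars2, the isoleucyl-tRNA synthetase, led with 38.4 RPKM. The medians of these groups, 11.4, 10.5 and 9.70 RPKM, lay below the 41.6 RPKM of the ribosomal proteins.

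For the transcripts that this ribosome translates, the table held COX1, ND5 and ND6 as Ensembl entries. COX1, a core subunit of cytochrome c oxidase, was at 13130 ± 1088 RPKM in the WT and at 10160 ± 2246 RPKM in the Ucp1-KO cultures (SD, n = 3, exact two-sided permutation p = 0.2). ND5 and ND6 belong to complex I, and their groups overlapped as well (exact permutation p = 0.5 and 0.2).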

How the data were processed

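Genotypes and replicate numbers were taken from the sample labels. The authors sequenced single reads of 50 bases from libraries made from extracted RNA with a TruSeq RNA kit. They used bcl2fastq and CASAVA per the labels and aligned the reads to build 38 of the mouse genome. Reads with a unique place on known transcripts were counted (Genomatix Mining Station), and RPKM values were deposited. The version of the mapping software is not given in the sources used here. DESeq2, the count test of the study, was not repeated.

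The 16865 of 28890 RefSeq transcripts whose mean reached 0.5 RPKM were compared on the log2(RPKM + 1) scale by limma 3.58.1 (R 4.3.3) with empirical Bayes moderation, a trend of variance with intensity and no covariate. Benjamini-Hochberg adjustment covered all of them, at a threshold of 0.05. Single values were also compared by exact permutation tests. Library totals were recovered from low RPKM values of Ensembl transcripts of known length, which are whole multiples of 1 read: 93.6 to 93.7% of these values per culture came out whole within 0.05 reads. RefSeq lengths were then chosen to give whole reads, so wholeness is no check on them, and in 300 simulated transcripts the reads of 290 were recovered. No molecular identifiers were used, and floors (3 reads) therefore cover counting error only. Scripts were tested on simulated data. Python 3.11.15, numpy 2.4.6, pandas 2.3.3 and matplotlib 3.10.9 were used. Strand was not stated for the assignment of reads.

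Members and lists were chosen with earlier results of these data known. Members described singly are the 5 most and 3 least abundant of each subunit, the 5 most positive and 5 most negative log2 fold changes, any with an unadjusted p under 0.05 (there were none), those below the minimum, those whose RefSeq transcripts differ most, and those named for their role (Mrpl12, Mrps12, Mrps18a to c, Mrps30, Mrps36, Mrp63 and Ict1). Members without overlap between genotypes, promoters, neighbours and the remaining examples were picked after their values were seen. The 4 lists of other translation genes hold ribosomal proteins with other symbols, translation factors, assembly and tRNA charging. Mterf4, Mrm2, Mrm3, Gatb and Adgre1 were matched by gene ID. Alternatives were a constant of 0.1 RPKM, no minimum, 1 transcript per gene, median-of-ratios scaling, each culture left out, summed transcripts, assignment by place and means for medians. Limma-voom on the recovered reads, replicates 10 and 13 left out together, and transcripts of all annotations were added after seeing the data.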

Additional observations from a re-analysis of the deposited data

How the results depend on the processing

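No paired analysis was made, because the labels share no replicate number between WT (10 to 12) and Ucp1-KO cultures (13 to 15). They also link no culture to another. The pairs 10 and 13, 11 and 14, and 12 and 15 were seen only in these data. A block on them could be computed but would take its pairing from the values under test, and was not run. Without a minimum abundance, limma called 22 of 28890 transcripts in place of 0 of 16865, and 0 members. Under all other alternatives no transcript was called, and members with an unadjusted p under 0.05 numbered 0 to 8. Over all transcripts that number was 935, against 1456 without a minimum, 317 to 1754 with single cultures left out (fewest without WT replicate 11, most without WT replicate 10) and 2302 without replicates 10 and 13 together. The median log2 fold change of the small subunit was 0.0207 to 0.0761 when single cultures were left out, lowest without Ucp1-KO replicate 15, and that of the large subunit moved less than the spread between replicates. The large-to-small ratio, 1.126 over all cultures, was 1.27 with means in place of medians and 1.234 with the highest transcript of any annotation. For 20 members named with a fold change, 236 of 240 values kept direction and call. The exceptions lay near 0. Mrpl12 was -0.0015 to 0.1174 and Mrps12 -0.0199 to 0.048 when single cultures were left out, and Mrps12 was -0.0103 without replicates 10 and 13 together. Mrpl23 and Mrps36 lie near the floor of 3 reads.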
